A study of Homo sapiens with 2 samples.

Results

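The genes of poly(A)-binding proteins and of the proteins that work with them were followed in human HEK293 cells with and without LARP7. They are the poly(A)-binding proteins PABPC1, PABPC4, PABPC1L and PABPN1, the PABP-interacting proteins PAIP1, PAIP2 and PAIP2B, and the scaffold proteins EIF4G1, EIF4G2 and EIF4G3. These 10 genes were taken by symbol in the GENCODE v29 annotation, out of 57894 genes, with all of their 176 transcripts, out of 197318. The family was selected on the read counts of PABPC1 in this same comparison, where PABPC1 was already known to be lower in the knockout. The difference in PABPC1 is therefore given as a description, and nothing is read from its test. The tested cells were LARP7 knockout HEK293 cells of a single clone, measured in 2 libraries. They were set against the parental HEK293 line, also in 2 libraries. HEK293 is an established line of human embryonic kidney origin, and both kinds of cell were grown in the same serum-supplemented medium without further treatment. Total RNA was sequenced. Nothing in the labels says whether the 2 libraries of a kind came from separate cultures, so the spread between them may be technical.

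Levels are given as CPM, the read count of a gene scaled to the size of its library with TMM factors. The libraries held 16838501 and 16218587 estimated reads for the knockout, against 18483220 and 12851942 for the parental cells. The median difference between the length and the effective length of a transcript, which follows the length of the sequenced fragments, was 232.9 and 225.8 bases in knockout libraries, against 217 and 206.7 bases in parental libraries. An offset for the effective length of each gene, averaged over its transcripts by TPM, left the log2 fold change of PABPC1 at -0.76. This offset also follows the estimated mix of transcripts, so it does not correct for fragment length alone. LARP7, the targeted gene, had 36.1 and 31.9 CPM in knockout libraries, against 59.8 and 46.5 CPM in parental libraries. The log2 fold change of LARP7 was -0.65 (SE 0.16), short of the threshold (edgeR adjusted p = 0.135), and 4 of 13 alternative fits called it. LARP7 binds and stabilises the 7SK RNA. The annotated 7SK entry that held reads had 2904 and 3457 reads in the knockout libraries, against 98057 and 69038 reads in the parental libraries, a log2 fold change of -4.89 (SE 0.12, edgeR adjusted p = 1.13e-06). Of 6 markers named for HEK293 cells all were detected, and of 7 markers of other cell types PECAM1 and MYH7 were at 0 reads, PTPRC, CD3E, ALB and GFAP at 8 reads or fewer, and COL1A1 at 5.68 to 7.30 CPM. The weakest HEK293 markers, KRT8 at 1.48 to 2.04 CPM and PAX2 at 4.32 to 5.62 CPM, lay below COL1A1. NEFM, a neurofilament gene among the HEK293 markers, had 7.76 and 8.58 CPM in knockout libraries, against 49.4 and 73.6 CPM in parental libraries. It was the single marker that changed (log2 fold change -2.91, SE 0.22, edgeR adjusted p = 0.00164).

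Messenger RNAs carry a poly(A) tail that is coated with poly(A)-binding proteins. In the nucleus PABPN1 binds the growing tail and stimulates the poly(A) polymerase. In the cytoplasm PABPC1, the most abundant of the family in most cells, binds the tail and the scaffold eIF4G, which holds the cap-binding protein eIF4E, so that both ends of the mRNA are brought together during translation. PAIP1 stimulates translation through PABPC1, whereas PAIP2 and PAIP2B compete for PABPC1 and inhibit it. The carboxy-terminal MLLE domain of the cytoplasmic proteins receives the short PAM2 motif of deadenylases, of the release factor eRF3 and of other regulators.

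PABPC1 had the lowest log2 fold change of the 10 genes, which is the value that chose the family, and the other 9 gave no call. Genes were called with the edgeR quasi-likelihood test at a Benjamini-Hochberg adjusted p under 0.05 over 18484 tested genes. PABPC1 was the 1 member past that threshold, on the low side, which restates how the family was chosen, and nothing is read from it. Over all tested genes 0.503% were called lower and 0.33% higher. Of the other 9 members 0 were called by edgeR, DESeq2 or limma voom, and 0 had an unadjusted edgeR p under 0.05, where 14.3% of all tested genes had one. Calls among these 9 appeared in edgeR fits that left out a parental library, for EIF4G2 without parental replicate 1 and for PABPC4, PAIP2 and EIF4G1 without parental replicate 2. With the replicate number as a block, edgeR also called EIF4G2 (log2 fold change 0.34, edgeR adjusted p = 0.014), though the labels do not pair the libraries. The median log2 fold change of the 10 members was -0.14, and it was -0.14 without PABPC1, against 0.00 over all tested genes. In 4 members both knockout libraries lay below both parental libraries, and in 1 both lay above, where 22.7% and 23.5% of all tested genes had those orders. PABPC1, which chose the family, is among the 4. Of the other 9 members, 3 had both knockout libraries below and 1 had both above. All 10 members passed the filter on low counts. In RNA from bulk cells, fewer cells with a transcript and less of it per cell cannot be told apart.

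**Figure D1:**
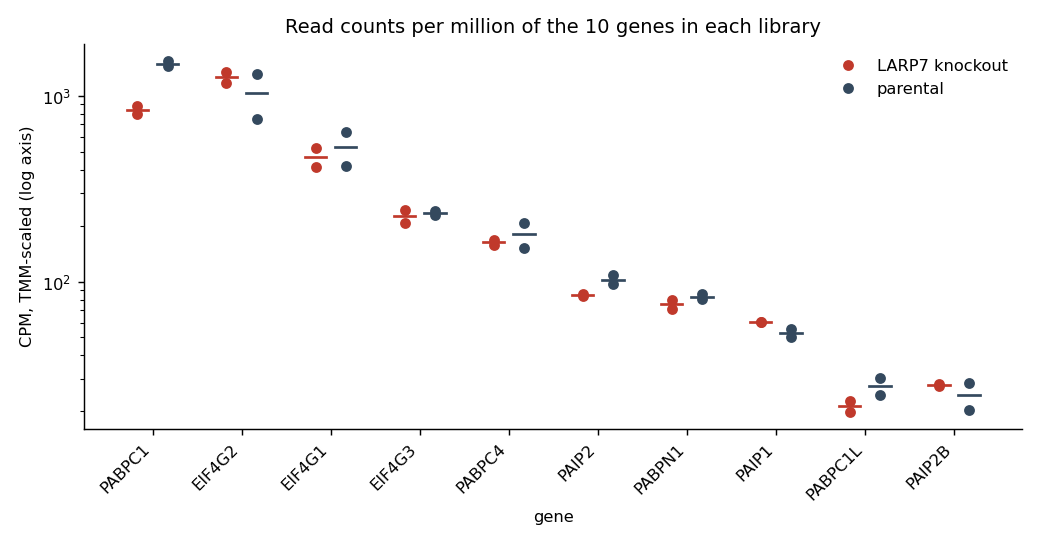
CPM (log axis) of the 10 genes in each of 4 libraries; red points are LARP7 knockout libraries, dark points parental libraries, and short lines the mean of each pair. PABPC1 is the gene with the widest gap between the pairs, 877 and 796 CPM in knockout libraries against 1452 and 1528 CPM in parental libraries, while the parental libraries of EIF4G2 stand far apart.

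PABPC1, the main cytoplasmic poly(A)-binding protein, lies on chromosome 8 (GRCh38, positions 100685816 to 100722809, minus strand). It had 877 and 796 CPM in knockout libraries, against 1452 and 1528 CPM in parental libraries. Both knockout libraries were low, both parental libraries were high, and the gap between the pairs was several times the distance within either pair. The mean was 837 ± 57.9 CPM in the knockout and 1490 ± 54.1 CPM in the parental cells (SD, n = 2 each). The fitted log2 fold change was -0.83 (SE 0.10), that is 56.1% of the parental level. It ranged from -0.90 to -0.74 over 14 other ways of fitting. Of all 18484 tested genes, 1134 (6.14%) had a lower log2 fold change than PABPC1, and of the 2104 tested genes with an average above 100 CPM, 29 had.

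Several near copies of PABPC1 exist in the genome, and reads could be split between them. PABPC3, an intronless copy on chromosome 13 known from testis, shared 15.4% of its 31-base words with PABPC1, and 16.8% of the words of PABPC1 occurred in PABPC3 or in an annotated PABPC1 pseudogene. PABPC3 had 14 and 24 reads in knockout libraries, against 49 and 58 reads in parental libraries. Its groups did not overlap, but the log2 fold change of -1.71 (SE 0.49) missed the threshold (edgeR adjusted p = 0.174). The pseudogenes PABPC1P1, PABPC1P3, PABPC1P4 and PABPC1P11 had between 2 and 31 reads in a library, and the remaining pseudogenes had 8 or fewer. Adding the reads of all these copies to PABPC1 gave a log2 fold change of -0.84, so the count of PABPC1 itself hardly depended on them. PABPC5, PABPC1L2A and PABPC1L2B had 0 reads in every library.

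The difference in PABPC1 was seen in several of its transcripts. Their reads are part of the PABPC1 count that chose the family, so their order is a description. Of 24 annotated transcripts 19 had reads, and 6 held at least 5% of the TPM (a level per length, scaled within the library) of the gene in some library. The coding transcript PABPC1-208 had 398 and 359 CPM in knockout libraries, against 660 and 645 CPM in parental libraries. The longer coding transcript PABPC1-201 had 160 and 140 CPM in knockout libraries, against 268 and 366 CPM in parental libraries. PABPC1-211, a processed transcript of 771 bases, had 148 and 133 CPM in knockout libraries, against 232 and 207 CPM in parental libraries. In all 3 of these transcripts both knockout libraries were low and both parental libraries high, and the same order held for PABPC1-216 and for the retained-intron transcript PABPC1-207. PABPC1-207 had 52.4 and 75.1 CPM in knockout libraries, against 128 and 124 CPM in parental libraries. Against these 5 transcripts, PABPC1-202, an annotated coding transcript of 560 bases, had 16.6 and 8.05 CPM in knockout libraries, against 6.88 and 1.43 CPM in parental libraries. It was the one of the 6 that was higher in the knockout, at a level where the libraries of each pair were themselves far apart. How many of all transcripts had either order by CPM was not counted.

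**Figure D2:**
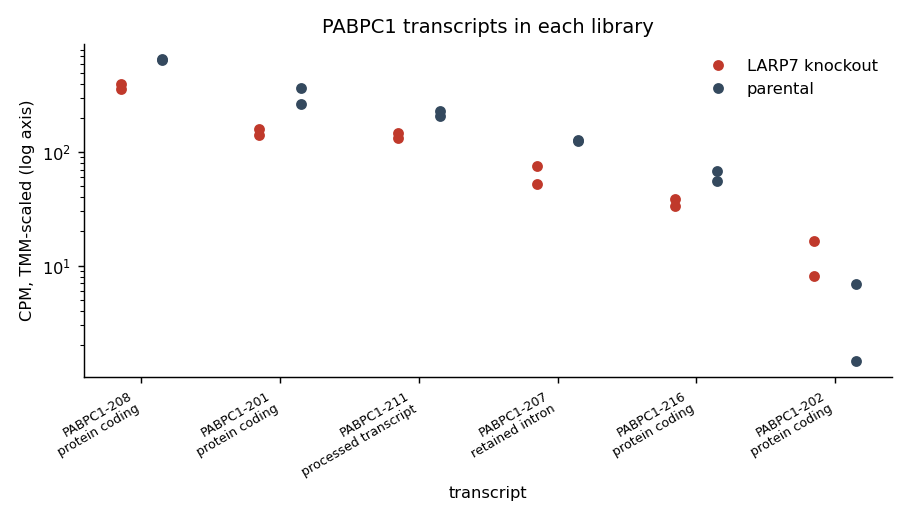
CPM (log axis) of the 6 PABPC1 transcripts that hold at least 5% of the TPM of the gene in some library, with the annotated type under each name; red points are LARP7 knockout libraries and dark points parental libraries. In 5 transcripts both red points lie below both dark points, and in PABPC1-202 both lie above.

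Within the gene, PABPC1-208 held 22.9% and 22.1% of the PABPC1 TPM in knockout libraries, against 22.9% and 23.1% in parental libraries. PABPC1-211, the largest share, held 34.4% and 32.7% in knockout libraries, against 31.6% and 28.8% in parental libraries. PABPC1-201 held 6.13% and 5.77% in knockout libraries, against 6.20% and 8.79% in parental libraries. The shares of PABPC1-211 and PABPC1-201 did not overlap between the cells, by small margins. How often the shares of all transcripts separate in this way was not counted. PABPC1-202, of 560 bases, stood further apart, with 6.30% and 3.22% in knockout libraries, against 1.51% and 0.320% in parental libraries. Coding transcripts together held 47.0% and 41.7% in knockout libraries, against 41.9% and 44.6% in parental libraries, and the groups overlapped. Retained-intron transcripts held 18.7% and 25.5% in knockout libraries, against 25.1% and 26.5% in parental libraries, which also overlapped. Shares of this kind rest on how the estimation divides reads between transcripts of shared sequence.

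Genes around PABPC1 on chromosome 8 were also lower, by less. Within 5 Mb of its start 55 other genes were tested, and their median log2 fold change was -0.29. Of these, 42 (76.4%) were below 0, and in 28 both knockout libraries lay below both parental libraries, where 22.7% of all tested genes had that order. A single neighbour was called, where 0.503% of all tested genes were called lower. It was AZIN1, 2.14 Mb from PABPC1, with a log2 fold change of -0.75 (edgeR adjusted p = 0.0317) at an average log2 CPM of 6.95. PABPC1, which was chosen for its low value, was 0.54 lower on the log2 scale than the median of its neighbours. The neighbours with a lower log2 fold change than PABPC1 were 6 genes (ERICH5, NCALD, AP002907.1, KLF10, AP003696.1 and RIMS2), with no library of any of them above 19.4 CPM. For the other 9 members the neighbours within 5 Mb had medians between -0.04 and 0.09.

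The nearest tested genes on each side had values between that of PABPC1 and 0, with 1 exception. RNF19A, a ubiquitin ligase gene, had 24.2 and 29.99 CPM in knockout libraries, against 33.9 and 38.4 CPM in parental libraries. ANKRD46 had 28.8 and 22.7 CPM in knockout libraries, against 37.9 and 35.7 CPM in parental libraries. On the other side YWHAZ, which encodes a 14-3-3 adaptor protein, had 533 and 494 CPM in knockout libraries, against 788 and 629 CPM in parental libraries. The knockout libraries of all 3 genes lay below both parental libraries, with log2 fold changes of -0.41, -0.51 and -0.46, and edgeR adjusted p-values of 0.317, 0.227 and 0.17. AP003469.4 and ZNF706 had log2 fold changes of -0.55 and -0.41, and the pseudogene GAPDHP62, at 2.54 CPM or less, had 0.35. None of these 6 genes was called by edgeR, and 4 of them had an unadjusted edgeR p under 0.05, where 14.3% of all tested genes had one. YWHAZ alone was followed through the other fits, and 3 of 13 called it.

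Along the rest of chromosome 8 the shift was not even. Genes starting 20 to 60 Mb before PABPC1 had a median log2 fold change of -0.02 over 151 genes, and those 60 to 105 Mb before it had -0.02 over 216 genes. In the last 5 Mb before PABPC1 the median was -0.28 over 28 genes, and in the first 5 Mb after it -0.31 over 27 genes. Between 20 and 50 Mb after it the median was -0.37 over 147 genes, of which 85 had both knockout libraries below both parental libraries. Over all tested genes 22.7% had that order. The lower values thus ran from near PABPC1 towards the end of the chromosome. The knockout is a single clone, so a difference that the clone carries and one that follows from the loss of LARP7 cannot be told apart. These intervals were chosen after the values were seen.

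**Figure D3:**
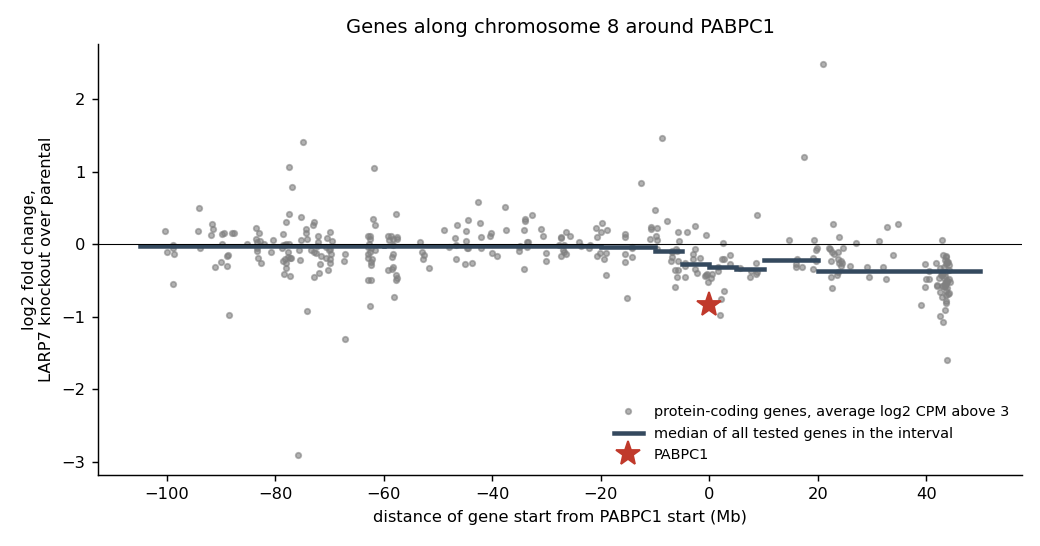
Log2 fold change (LARP7 knockout over parental) of genes on chromosome 8 against the distance of their start from the start of PABPC1 in Mb; grey points are the 357 tested protein-coding genes whose mean log2 CPM exceeds 3, bars are the medians of all tested genes in each interval, and the red star is PABPC1. The bars lie near 0 until 10 Mb before PABPC1 and between -0.21 and -0.37 from the last 5 Mb before it onwards, with the star below them.

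The genes most alike to PABPC1 over the 4 libraries came from mitochondrial DNA. Likeness was the distance between centred log2 CPM values over the 4 libraries, among 120 genes of similar abundance. MT-ND6 and MT-ND3, which encode subunits of respiratory complex I, were nearest, at distances of 0.131 and 0.143. MT-ND6 had 632 and 572 CPM in knockout libraries, against 1066 and 1227 CPM in parental libraries. MT-ND3 had 1004 and 865 CPM in knockout libraries, against 1716 and 1584 CPM in parental libraries. The third gene, MTATP6P1, is a nuclear copy of mitochondrial genes and can share their reads. It had 731 and 658 CPM in knockout libraries, against 1454 and 1656 CPM in parental libraries. Protein-coding transcripts of mitochondrial DNA took 6.87% and 6.15% of the reads in knockout libraries, against 9.97% and 10.4% in parental libraries. Their part in the level of PABPC1 was not tested. With 4 libraries in 2 groups, any gene with a similar fold change comes out alike.

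PABPC4, a cytoplasmic poly(A)-binding protein first found in activated T cells, lies on chromosome 1 (39560816 to 39576790, minus strand). It had 168 and 157 CPM in knockout libraries, against 208 and 152 CPM in parental libraries. Both knockout libraries lay between the parental ones. Its log2 fold change of -0.15 (SE 0.16) was within the spread of the libraries (edgeR adjusted p = 0.725). The direction depended on which parental library was used, being 0.09 without parental replicate 1 and -0.36 without parental replicate 2, where the adjusted p was 0.0448.

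PABPC1L, known as the poly(A)-binding protein of oocytes and early embryos, lies on chromosome 20 (44910062 to 44959035, plus strand). It had 19.96 and 22.8 CPM in knockout libraries, against 24.4 and 30.4 CPM in parental libraries. The knockout libraries were both lower, but the step between the groups was smaller than the distance between the parental libraries. PABPC1L thus had a log2 fold change of -0.36 (SE 0.18, edgeR adjusted p = 0.422). PABPC4L, a paralog outside the list of 10, had 44.5 and 43.7 CPM in knockout libraries, against 32.4 and 44.1 CPM in parental libraries. Its groups overlapped, and the log2 fold change was 0.21 (SE 0.17, edgeR adjusted p = 0.634).

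PABPN1, the nuclear poly(A)-binding protein, lies on chromosome 14 (23321289 to 23326185, plus strand). It had 79.5 and 71.5 CPM in knockout libraries, against 85.7 and 80.4 CPM in parental libraries. The knockout libraries were both lower, with less than 1 CPM between the nearest libraries of the groups. The log2 fold change was -0.14 (SE 0.13, edgeR adjusted p = 0.671), and with an offset for transcript length it was 0.02. BCL2L2-PABPN1, a readthrough gene that shares 41.1% of its 31-base words with PABPN1, had 4.67 and 8.05 CPM in knockout libraries, against 10.2 and 5.40 CPM in parental libraries. Reads of the shared exons cannot be assigned to one of these genes with certainty.

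Within each library the cytoplasmic poly(A)-binding proteins could be compared by TPM. PABPC1 made up 86.6% and 86.5% of the summed TPM of PABPC1, PABPC4, PABPC1L, PABPC4L and PABPC3 in knockout libraries, against 89.5% and 90.5% in parental libraries. PABPC4 made up 10.3% and 10.2% in knockout libraries, against 8.56% and 6.94% in parental libraries. The shares of PABPC4L were 1.02% and 1.07% in knockout libraries, against 0.464% and 0.664% in parental libraries. PABPC1 was thus the great majority in every library, with a share lower by a few percentage points in the knockout. The same order held over coding transcripts alone, where PABPC1 made up 83.6% and 81.5% in knockout libraries, against 86.5% and 87.7% in parental libraries. PABPC1 itself chose this comparison, so these shares are a description.

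PAIP1, the activating partner, lies on chromosome 5 (43526267 to 43557758, minus strand). It had 60.9 and 60.5 CPM in knockout libraries, against 55.9 and 50.4 CPM in parental libraries. It was the one member with both knockout libraries above both parental libraries. Its log2 fold change was 0.19 (SE 0.13, edgeR adjusted p = 0.554).

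PAIP2, an inhibitor of PABPC1, also lies on chromosome 5 (139341587 to 139369720, plus strand). It had 83.9 and 85.6 CPM in knockout libraries, against 108 and 97.2 CPM in parental libraries. The knockout libraries lay close together and below both parental libraries. The log2 fold change was -0.28 (SE 0.12, edgeR adjusted p = 0.363), and without parental replicate 2 it was -0.35 with an adjusted p of 0.0394.

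PAIP2B, the second inhibitor, lies on chromosome 2 (71182739 to 71227083, minus strand). It had 27.4 and 28.2 CPM in knockout libraries, against 20.5 and 28.5 CPM in parental libraries. The knockout values lay inside the range of the parental ones. Fitted over all libraries, the log2 fold change was 0.19 (SE 0.19, edgeR adjusted p = 0.711), and it was -0.04 without parental replicate 1. PAIP2B has a single annotated transcript of 6279 bases, so its level per length was the lowest of the 10.

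Set against PABPC1 in the same library, each of the PABP-interacting proteins had more TPM in the knockout. For every 100 TPM of PABPC1 there were 5.83 and 6.03 TPM of PAIP1 in knockout libraries, against 3.28 and 2.98 TPM in parental libraries. For PAIP2 the figures were 8.58 and 9.25 TPM in knockout libraries, against 6.50 and 6.07 TPM in parental libraries. For PAIP2B they were 0.566 and 0.624 TPM in knockout libraries, against 0.255 and 0.370 TPM in parental libraries. In all 3 both knockout ratios lay above both parental ratios, as they did for 75% of all tested genes, so these ratios are a description and not a result about the partners. TPM of PAIP1 and PAIP2B were themselves higher in both knockout libraries, with 39.8 and 37.3 TPM of PAIP1 in knockout libraries, against 30.9 and 21.4 TPM in parental libraries. By CPM the groups of PAIP2B overlapped. TPM is scaled within each library and moves with its most abundant short RNAs, so no change of the partners is read from these values.

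EIF4G1, the main scaffold of the cap-binding complex, lies on chromosome 3 (184314495 to 184335358, plus strand). It had 521 and 413 CPM in knockout libraries, against 636 and 420 CPM in parental libraries. In both kinds of cell replicate 1 was the higher library, and the groups overlapped. The log2 fold change was -0.18 (SE 0.20, edgeR adjusted p = 0.732). It was 0.15 without parental replicate 1, and -0.45 without parental replicate 2 with an adjusted p of 0.00349.

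EIF4G2, also called DAP5, resembles the carboxy-terminal part of EIF4G1 and lacks the region that binds eIF4E and PABPC1. It lies on chromosome 11 (10797050 to 10809110, minus strand). It had 1346 and 1168 CPM in knockout libraries, against 1305 and 754 CPM in parental libraries. Parental replicate 2 stood alone at the low end, and parental replicate 1 lay between the knockout libraries. The log2 fold change was 0.29 (SE 0.22, edgeR adjusted p = 0.603). Without parental replicate 1 it was 0.73 with an adjusted p of 0.000104, and without parental replicate 2 it was -0.06. The apparent difference in EIF4G2 thus rested on parental replicate 2.

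EIF4G3, the second scaffold that binds eIF4E and poly(A)-binding protein, lies on chromosome 1 (20806292 to 21176888, minus strand). It had 244 and 207 CPM in knockout libraries, against 241 and 228 CPM in parental libraries. These groups overlapped, and the log2 fold change of -0.06 (SE 0.13, edgeR adjusted p = 0.884) was the closest to 0 of the 10. It was 0.06 without knockout replicate 2 and 0.03 when scaled by library size alone.

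**Figure D4:**
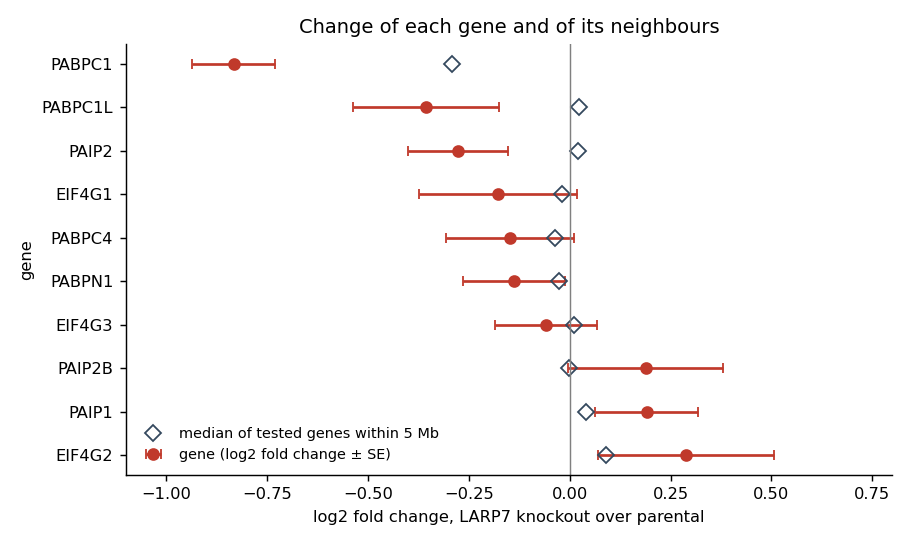
Log2 fold change (LARP7 knockout over parental) of each of the 10 genes as red points with bars of 1 SE, and the median log2 fold change of the tested genes within 5 Mb as open diamonds. PABPC1 lies at -0.83 with its neighbours at -0.29, and the diamonds of the other 9 genes lie between -0.04 and 0.09.

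Per length, the order of the members was nearly the same in all 4 libraries. PABPC1 led with 684 and 618 TPM in knockout libraries, against 942 and 719 TPM in parental libraries. EIF4G2 came next with 500 and 439 TPM in knockout libraries, against 408 and 171 TPM in parental libraries. EIF4G1 and then PABPC4 came after it in every library. PABPN1, EIF4G3 and PAIP2 followed, with 36.3 to 68.4 TPM. PABPN1 stood above EIF4G3 in every library. PABPN1 came first in this stretch in both knockout libraries, and PAIP2 in both parental libraries. The order was not tested. PAIP1, PABPC1L and PAIP2B ended the order in every library, PAIP2B with 3.87 and 3.86 TPM in knockout libraries, against 2.41 and 2.66 TPM in parental libraries.

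Transcript usage did not change detectably in any of the 9 members that could be tested. The test (edgeR diffSpliceDGE, Simes, adjusted over 10196 genes) called 0 of the 9, against 0.824% of all genes tested. The smallest unadjusted p among them was 0.514 (EIF4G1), so 0 were under 0.05, and the gene-level F test also called 0. Some transcripts had shares that did not overlap, and how often this happens over all transcripts was not counted. By CPM, 22.7% of all tested genes had both knockout libraries below both parental libraries, and 23.5% had both above. Those figures are for genes by CPM and give no background for transcript shares. EIF4G1-208, an isoform annotated for nonsense-mediated decay, held 3.80% and 7.82% of the EIF4G1 TPM in knockout libraries, against 13.4% and 14.7% in parental libraries. Coding transcripts of EIF4G1 together held 88.8% and 81.6% in knockout libraries, against 75.2% and 69.1% in parental libraries. The knockout shares were thus lower for the decay isoform and higher for coding transcripts, while the usage of EIF4G1-208 had an unadjusted p of 0.103.

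PABPC4 and PABPN1 gave further examples. The retained-intron transcript PABPC4-213 held 6.77% and 5.57% of the PABPC4 TPM in knockout libraries, against 11.5% and 13.0% in parental libraries. Another retained-intron transcript, PABPC4-216, held 5.66% and 4.82% in knockout libraries, against 0.578% and 1.26% in parental libraries. These transcripts thus differed in opposite directions, at 11.0 CPM or less. PABPN1-208, a coding transcript of 778 bases, held 58.0% and 58.4% of the PABPN1 TPM in knockout libraries, against 48.1% and 50.3% in parental libraries. The coding transcript PABPN1-201 held 26.7% and 27.1% in knockout libraries, against 32.1% and 32.9% in parental libraries. PAIP2 and EIF4G2 had no transcript of this kind among those holding at least 5% of the gene. PAIP2-201 held 81.2% and 85.4% of the PAIP2 TPM in knockout libraries, against 87.1% and 80.5% in parental libraries. EIF4G2-205 held 42.6% and 41.4% of the EIF4G2 TPM in knockout libraries, against 41.7% and 45.3% in parental libraries. Both overlapped.

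Genes that act with the poly(A)-binding proteins were described as 5 lists, in which 0 genes were called by edgeR. In the cap-binding complex and its regulators 17 of 18 genes were tested, with a median log2 fold change of -0.06. Of these, 6 had an unadjusted p under 0.05, and the counts of such genes in this and the other lists stand beside 14.3% of all tested genes. The smallest p-values belonged to EIF3E and EIF3G, subunits of the initiation factor eIF3, and to EIF4EBP1, which holds eIF4E away from eIF4G. EIF4EBP1 had 21.1 and 21.9 CPM in knockout libraries, against 30.7 and 47.2 CPM in parental libraries. Its knockout libraries were both lower and its parental libraries far apart, with a log2 fold change of -0.85 (SE 0.21, edgeR adjusted p = 0.132). EIF4EBP1 lies on chromosome 8 too, at -62.7 Mb from PABPC1, in the interval where the median was -0.02. EIF3G had 45.9 and 44.7 CPM in knockout libraries, against 68.4 and 60.3 CPM in parental libraries, a log2 fold change of -0.51 (SE 0.13, edgeR adjusted p = 0.142). DESeq2 called EIF3E and EIF4EBP1, and limma voom called 0.

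Proteins that bind the MLLE domain through a PAM2 motif had a median log2 fold change of 0.05 over 14 of 15 genes, with 2 genes at an unadjusted p under 0.05. ATXN2, an RNA-binding protein of stress granules, had 102 and 103 CPM in knockout libraries, against 126 and 129 CPM in parental libraries. LARP1, which binds the cap of TOP mRNAs, had 446 and 423 CPM in knockout libraries, against 528 and 485 CPM in parental libraries. TNRC6B, a scaffold of microRNA silencing, had 252 and 247 CPM in knockout libraries, against 192 and 220 CPM in parental libraries. ATXN2 and LARP1 were lower and TNRC6B higher in both knockout libraries, with log2 fold changes of -0.31, -0.22 and 0.28, and edgeR adjusted p-values of 0.281, 0.412 and 0.346. DESeq2 and limma voom called 0.

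Genes of the deadenylases, which shorten the tail, had a median log2 fold change of -0.02 over 18 of 18 genes, with 2 genes at an unadjusted p under 0.05. CNOT3, a subunit of the CCR4-NOT complex, had 37.8 and 40.7 CPM in knockout libraries, against 56.1 and 47.9 CPM in parental libraries. BTG2, which recruits that complex, had 14.9 and 22.5 CPM in knockout libraries, against 13.0 and 12.4 CPM in parental libraries. The catalytic subunit CNOT6 had 148 and 138 CPM in knockout libraries, against 167 and 165 CPM in parental libraries. CNOT3 and CNOT6 were lower and BTG2 higher in both knockout libraries, with log2 fold changes of -0.41, -0.21 and 0.56, and edgeR adjusted p-values of 0.257, 0.457 and 0.334. DESeq2 and limma voom called 0.

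Genes of 3′ end formation and of nuclear decay linked to PABPN1 had a median log2 fold change of 0.02 over 22 of 22 genes, with 3 genes at an unadjusted p under 0.05. CPSF1, a subunit of the factor that cleaves and polyadenylates pre-mRNA, had 63.0 and 60.1 CPM in knockout libraries, against 96.0 and 96.4 CPM in parental libraries. The pairs were tight and well apart, and the log2 fold change was -0.64 (SE 0.12) with an edgeR adjusted p of 0.053. DESeq2 called it, limma voom did not, and of 13 alternative fits 7 called it, with adjusted p-values from 3.14e-05 to 0.518. CPSF1 starts 43.7 Mb from PABPC1 on chromosome 8, in the stretch where the median was -0.37. SYMPK, a scaffold of the cleavage complex, and ZFC3H1, which takes part in nuclear decay of polyadenylated RNA, each had a log2 fold change of -0.29, with edgeR adjusted p-values of 0.323 and 0.328.

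PABPC1 and PABPC4 belong to the mRNAs with a 5′ terminal oligopyrimidine (TOP) tract, a run of pyrimidines that starts with a C at the cap and through which growth signals and LARP1 control translation. A list of 20 TOP mRNAs other than those of the named members was therefore set beside them.

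Start sites of 3 listed genes and of 2 members show what marks such an mRNA. Each line has 10 bases before the RefSeq start site and 20 bases from it (GRCh38.p14), and capitals mark the unbroken run of pyrimidines that begins at the start site. EEF1A1 (chr6:73521013-73521042, minus strand) and EEF2 (chr19:3985444-3985473, minus strand) encode elongation factors, and NAP1L1 (chr12:76084666-76084695, minus strand) a histone chaperone.
EEF1A1: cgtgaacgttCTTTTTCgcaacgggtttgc
EEF2: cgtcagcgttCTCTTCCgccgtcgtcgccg
NAP1L1: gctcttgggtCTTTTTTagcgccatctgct
PAIP2B (chr2:71227084-71227113, minus strand) and PABPC1L (chr20:44910050-44910079, plus strand) have 1 such window each and show no run.
PAIP2B: gcgaggaggcagtgtgcagtaagagataac
PABPC1L: cgcgcccaggaaggagggcttccgcccggg

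The pattern searched was a C at the start site followed by 4 bases that are each C or T, on the transcribed strand alone. It was found in 4.07% of 35116 start windows. Of the TOP list, 15 of 20 genes had a window and 12 of them matched. PABPC1 and PABPC4 were not searched, since the table used has no window for them. The other 8 members had 15 windows, of which 0 matched. A missing match says only that these letters do not stand at the listed start site.

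The TOP mRNAs as a list did not share the lower level of PABPC1. All 20 were tested, 0 were called by edgeR, 6 had an unadjusted p under 0.05 (14.3% of all tested genes did), and the median log2 fold change was 0.06. DESeq2 called 1, EIF3E, and limma voom called 0. EEF1A1 had 7474 and 7708 CPM in knockout libraries, against 6461 and 6431 CPM in parental libraries, a log2 fold change of 0.24 (SE 0.07, edgeR adjusted p = 0.186). EIF3E had 264 and 280 CPM in knockout libraries, against 370 and 369 CPM in parental libraries, a log2 fold change of -0.44 (SE 0.11, edgeR adjusted p = 0.132). EEF1D, a subunit of the exchange factor for EEF1A1, had 112 and 118 CPM in knockout libraries, against 160 and 139 CPM in parental libraries, a log2 fold change of -0.38 (SE 0.13, edgeR adjusted p = 0.237). The knockout libraries were thus above both parental libraries for EEF1A1 and below both for EIF3E and EEF1D.

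The position of the TOP genes was also set beside their values. EIF3E, EIF3H and EEF1D start 7.5, 16 and 42.9 Mb from PABPC1 on chromosome 8, and in all 3 both knockout libraries lay below both parental libraries, with a median log2 fold change of -0.38; 22.7% of all tested genes had that order. The 17 TOP genes on other chromosomes had a median of 0.11, with 12 above 0 and 8 with both knockout libraries above both parental libraries, where 23.5% of all tested genes had that order. This division was made after the values were seen and was not tested. Genes of the other lists also lie on chromosome 8 outside the stretch of lower values. They are EIF4EBP1, at -62.7 Mb from PABPC1 with a log2 fold change of -0.85, and CNOT7, at -83.5 Mb with -0.09.

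**Figure D5:**
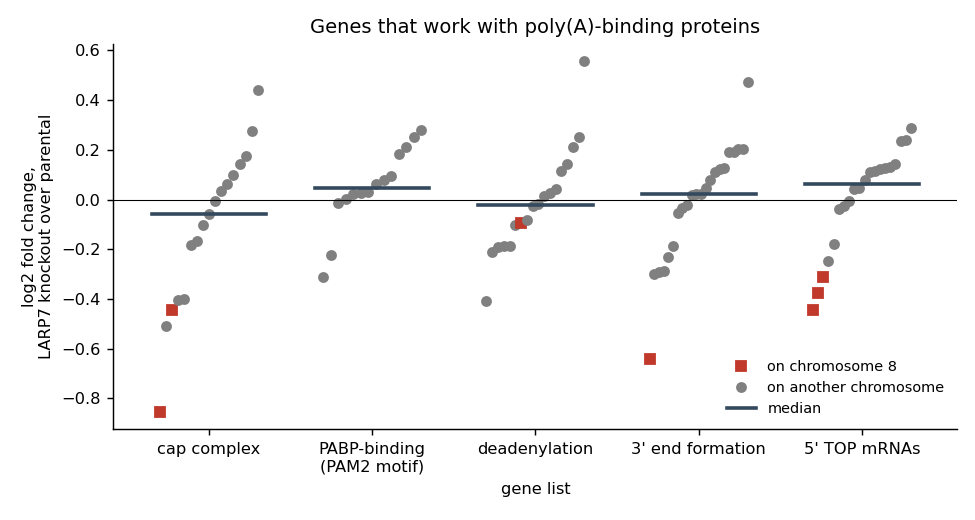
Log2 fold change (LARP7 knockout over parental) of every tested gene in 5 lists of genes that work with poly(A)-binding proteins, ordered within each list; red squares are genes on chromosome 8, grey points genes on other chromosomes, and bars the median of the list. The medians lie between -0.06 and 0.06, and the 3 lowest TOP genes are those on chromosome 8.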

How the data were processed

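The 4 deposited transcript tables hold estimated counts (expected reads) and TPM per transcript as Salmon writes them, per the file headers. The submitters' processing notes name cutadapt 1.6, STAR 2.5.3a, Salmon and edgeR 3.24.3, and the build hg38; which annotation the authors used is not given in the sources used here. Identifiers were matched to GENCODE v29. Of 198002 transcripts 684 had no match (0.0631% to 0.0711% of the reads). TPM values were used within a library.

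Counts were summed per gene, rounded and tested with edgeR 4.0.16 in R 4.3.3: filterByExpr with a minimum of 10, TMM factors, quasi-likelihood F test, and Benjamini-Hochberg adjustment over 18484 genes at 0.05. A log2 fold change is knockout over parental, and its SE comes from the F statistic. Usage was tested with diffSpliceDGE on transcripts with at least 10 reads and 5% of the TPM of their gene in 2 libraries. DESeq2 1.42.0 and limma voom 3.58.1 were alternatives. The tests were checked on simulated data with planted changes and independent libraries. That check does not bear on the single clone or on libraries that may be technical repeats.

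All members, the paralogs with at least 10 reads in a library, and in each list the called genes or the 3 smallest p-values are named. The members and lists were chosen with earlier results of these data known. Same-numbered libraries are not said to be pairs.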

Additional observations from a re-analysis of the deposited data

How the results depend on the processing

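The count of members called includes PABPC1, which chose the list, and is not a test of it. It was 1 in most alternatives, 2 with the replicate block and 0 to 4 when 1 library was left out (0 without knockout replicate 2, where the log2 fold change of PABPC1 was -0.76). The added calls were EIF4G2 (log2 fold change 0.34, edgeR adjusted p = 0.014 with the block), EIF4G2 without parental replicate 1, and PABPC4, PAIP2 and EIF4G1 without parental replicate 2. The labels do not pair the libraries. Over the tested genes the deviations of same-numbered libraries correlated at 0.165, with 2 pairs. Over all genes 154 were called, against 404 by DESeq2, 831 with no filter, 91 with a transcript length offset, 1656 with the replicate block and 200 to 2265 with 1 library left out. The fits without a parental library gave the highest counts. Changed usage was called in 84 genes, against 154 by the F test, 21 at a share of at least 10%, 0 with the replicate block and 0 to 127 with 1 library left out, and in 0 members throughout. The median around PABPC1 was -0.29, against -0.26 within 10 Mb and -0.20 by library size alone, a scaling that moves the median of all genes to 0.10.

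The direction reversed for EIF4G3 by library size alone (0.0332) and for PABPN1 with the length offset (0.0156). With 1 library left out, the log2 fold change ranged from -0.3597 to 0.0932 for PABPC4, from -0.0399 to 0.439 for PAIP2B, from -0.4488 to 0.1487 for EIF4G1, from -0.0568 to 0.7345 for EIF4G2 and from -0.178 to 0.0589 for EIF4G3. The cause was not tested.

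With 2 libraries against 2, an exact permutation test of a single value cannot go below 0.333, so calls rest on the spread shared over genes. A fit that leaves out 1 library assumes that the lone sample varies like the other group. The knockout is 1 clone, and parental replicate 2 is the shallowest library, with 12851942 estimated reads.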

Other observations

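The scale decided the direction of several members. PABPN1 had 68.4 and 58.3 TPM in knockout libraries, against 56.8 and 38.1 TPM in parental libraries, although its CPM were lower in the knockout. PABPC1L had 15.8 and 15.6 TPM in knockout libraries, against 14.6 and 14.6 TPM in parental libraries, and its CPM were also lower in the knockout. TPM in a library moves with its most abundant short RNAs. The most abundant transcript held 7.81% and 8.19% of all TPM in knockout libraries, against 6.47% and 17.5% in parental libraries. In the parental library at 17.5% it was a U1 small nuclear RNA of 164 bases. The part of these RNAs in the TPM of the members was not tested.

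The eIF4E-binding repressors EIF4EBP1 and EIF4EBP2 had lower CPM in both knockout libraries, an order that 22.7% of all tested genes had. EIF4EBP3 had 0 and 1.3 reads in knockout libraries, against 7.8 and 4.3 reads in parental libraries, and was too low to be tested. EIF4EBP2 had 256 and 230 CPM in knockout libraries, against 345 and 297 CPM in parental libraries, a log2 fold change of -0.40 (SE 0.13, edgeR adjusted p = 0.207). EIF4EBP2 was singled out with its values in view, and neither EIF4EBP2 nor EIF4EBP1 passed the threshold.

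PABPC4L made up a share of the cytoplasmic poly(A)-binding protein TPM that did not overlap between the cells, although its CPM overlapped. The mean share was 1.05% ± 0.0373 in the knockout and 0.564% ± 0.141 in the parental cells (SD, n = 2 each). PABPC1, which chose the family, is most of that sum, so the share is a description and not a result about PABPC4L. Relative to the TPM of PABPC1, 75% of all tested genes had both knockout libraries above both parental libraries.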
